A study of Mus musculus with 8 samples.

Results

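The Ms4a family was followed across the leukocytes of normal mouse brain and mouse glioma. Of the 31053 genes counted, 19 carry an Ms4a symbol, and 7 of these were chosen by symbol as members: Ms4a1, Ms4a4b, Ms4a4c, Ms4a6b, Ms4a6c, Ms4a6d and Ms4a7. The study grouped the CD45-positive cells of glioma by their transcripts. The data are droplet single-cell RNA sequencing counts of cells selected for CD45, the surface antigen shared by leukocytes. The labels list 4 glioma samples, taken from tumours of mice bearing a brain glioma, and 4 control samples, taken from the brains of normal mice. The strain, age and tumour line of the animals are not given in the sources used here. The counts form 1 pooled matrix per group with no map from cells to animals, so each group is 1 library, no difference between the groups could be tested against the spread between animals, and every interval below is an exact 95% interval for counting error only.

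Proteins of the MS4A family are small tetraspan proteins of the plasma membrane and of internal membranes. MS4A1 is CD20, the B cell antigen targeted by therapeutic antibodies, and the other members are known mainly from T cells, monocytes and macrophages, where they have been described as partners of surface receptors. In the brain, Ms4a7 is used in mice as a marker of macrophages other than microglia.

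All 7 members lie in 1 stretch of mouse chromosome 19 (GENCODE M21 annotation of GRCm38, the build named mm10 in the submitters' processing notes). The 19 Ms4a genes span 678559 bases, from 10962293 to 11640851, and the 7 members span 355175 bases of it. On the minus strand lie Ms4a1 (chr19:11249675-11266241), Ms4a7 (chr19:11321039-11336146) and Ms4a6d (chr19:11586604-11604849). On the plus strand lie Ms4a4c (chr19:11404770-11427246), Ms4a4b (chr19:11443553-11467055), Ms4a6c (chr19:11469366-11482192) and Ms4a6b (chr19:11516512-11531256). The coding sequences of Ms4a4b and Ms4a4c were 91.7% identical over a global alignment. Those of Ms4a6b and Ms4a6d were 80.1% identical, those of Ms4a6b and Ms4a6c 74.7% and those of Ms4a6c and Ms4a6d 67.2%. How reads that fit more than 1 of these near-copies were assigned is not given in the sources used here, so the split between them is uncertain. The kit reads the 3' end of transcripts. Of the 441 words of 60 bases in the last 500 bases of the longest coding transcript, 33 for Ms4a4c and 42 for Ms4a6c also occurred in a transcript of another gene, and 0 for the other 5 members.

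The windows around the start sites of 2 neighbouring pairs are shown because the members of each pair resemble each other in sequence while their levels below differ in different ways. Each runs from 250 bases before to 50 bases after the start site, 5′ to 3′ on the plus strand, from RefSeq (GRCm38.p6). Capitals mark GAGGAA, a core bound by ETS factors of the PU.1 type, and GAAANNGAA, a core of interferon response elements, each searched on both strands.
Ms4a4b, chr19:11443308-11443607: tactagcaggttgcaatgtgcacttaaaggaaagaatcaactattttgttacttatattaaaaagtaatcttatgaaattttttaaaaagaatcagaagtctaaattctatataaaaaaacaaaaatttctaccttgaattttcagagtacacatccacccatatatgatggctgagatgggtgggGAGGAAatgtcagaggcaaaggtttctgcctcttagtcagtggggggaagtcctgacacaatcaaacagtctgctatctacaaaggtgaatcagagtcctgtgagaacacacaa
Ms4a4c, chr19:11407411-11407710: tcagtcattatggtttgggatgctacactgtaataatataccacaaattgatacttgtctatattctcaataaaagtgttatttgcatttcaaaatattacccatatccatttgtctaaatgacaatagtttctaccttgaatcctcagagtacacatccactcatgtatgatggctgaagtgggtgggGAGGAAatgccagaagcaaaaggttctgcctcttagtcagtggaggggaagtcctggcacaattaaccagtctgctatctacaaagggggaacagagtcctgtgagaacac
Ms4a6b, chr19:11518309-11518608: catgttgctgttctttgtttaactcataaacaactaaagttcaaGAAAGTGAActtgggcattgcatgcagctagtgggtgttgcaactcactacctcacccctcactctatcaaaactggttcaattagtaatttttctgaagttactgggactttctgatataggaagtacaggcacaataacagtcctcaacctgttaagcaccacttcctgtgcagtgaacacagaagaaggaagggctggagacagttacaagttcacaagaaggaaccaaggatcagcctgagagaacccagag
Ms4a6c, chr19:11469118-11469417: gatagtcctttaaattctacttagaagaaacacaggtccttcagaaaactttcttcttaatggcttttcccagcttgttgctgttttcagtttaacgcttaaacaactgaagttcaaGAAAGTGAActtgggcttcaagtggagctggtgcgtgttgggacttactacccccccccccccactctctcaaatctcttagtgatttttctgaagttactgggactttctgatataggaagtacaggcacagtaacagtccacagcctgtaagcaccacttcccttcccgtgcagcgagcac
The windows matched 5 of the 7 members, with 6 windows, since Ms4a7 had 2. Ms4a1 and Ms4a6d are named only. The Ms4a4b and Ms4a4c windows were 72.1% identical, with a best local alignment of 183 columns at 88.5% identity. The Ms4a6b and Ms4a6c windows were 51.2% identical end to end, with a best local alignment of 232 columns at 81.0% identity. GAGGAA stood at -64 in Ms4a4b and at -61 in Ms4a4c, counted from the start site. It was also present at 44 in the Ms4a7 window chr19:11336097-11336396, and 28.3% of all 32851 windows hold it. GAAANNGAA was matched as GAAAGTGAA at -206 in Ms4a6b and at -133 in Ms4a6c, was present in both Ms4a7 windows, and was not matched in the Ms4a4b or Ms4a4c windows; 8.56% of all windows hold it. A match is a description of letters and not of a bound site.

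The glioma library held 159689787 unique molecular identifiers (UMIs, each standing for 1 captured transcript molecule) and the control library 124023146. Barcodes with at least 1000 UMIs and at most 10% mitochondrial UMIs were taken as cells, 11049 in glioma (median 11332 UMIs) and 13680 in control (median 6842 UMIs). The libraries shared 41 of these barcodes. Levels are given as CPM, the UMIs of a gene per 1000000 UMIs. Low barcodes of 1 library that reached 300 UMIs in the other carried the other's profile, with P2ry12 at 1553 CPM in such glioma barcodes, against 17.0 CPM in the remaining low glioma barcodes. They were therefore left out of the estimate of free RNA, which is RNA caught without a cell. Cells were placed in classes by raw UMIs of marker genes that are not Ms4a genes, and a class level is the sum of a gene's UMIs over the sum of all UMIs of the class. Cells of more than 1 lineage numbered 236 in glioma and 62 in control and were left out.

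Several gates held cells whose marker levels or depth differed between the libraries or went against the gate's name. The 253 glioma cells that met the microglial gate (P2ry12 and Tmem119) had 59.1 CPM of P2ry12 and 4.40 CPM of the microglial factor Sall1, against 2237 and 181 CPM in the 11764 control cells of that gate, so they are called P2ry12/Tmem119-gated cells. In control, the 470 cells of the Ccr7 and Fscn1 gate had 1478 CPM of P2ry12, and the 311 cells of the C1q gate had a median of 1773 UMIs. Neither is compared with a glioma class, but both are among the 20 classes of the profile correlations below. The 45 control cells of the cDC2-like gate had 450.6 CPM of P2ry12 and 158.8 CPM of Cbr2, against 1.58 and 0 CPM in the 74 glioma cells of that gate. The 34 glioma cells of the endothelial gate had 0 CPM of Cldn5 and were also left aside. Cells labelled keratin cells (99 in glioma, with 520.6 CPM of Krt8 and 3.25 CPM of Ptprc, the gene of CD45) and the 76 control endothelial cells served as cells that should lack the family. In them the members stood between 0 and 6.22 CPM in glioma and between 0 and 6.05 CPM in control.

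The members differed in their place among the leukocytes, apart from Ms4a6c and Ms4a6d, which shared theirs. Ms4a1 was a B cell gene, Ms4a4b a gene of T and NK cells, and Ms4a6c and Ms4a6d were highest in glioma monocytes and macrophages. Ms4a4c peaked in monocytes, Ms4a7 in macrophages, and Ms4a6b was shared by T cell and myeloid classes. Of glioma monocytes thinned to 2000 UMIs per cell, 97.5% (95.9 to 98.7%) had a UMI of at least 1 member, against 4.08% (1.12 to 10.1%) of glioma keratin cells. In control, 95.2% (91.0 to 97.8%) of border-associated macrophages and 39.5% (38.6 to 40.4%) of microglia had one, against 1.37% (0.0347 to 7.40%) of endothelial cells.

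**Figure D1:**
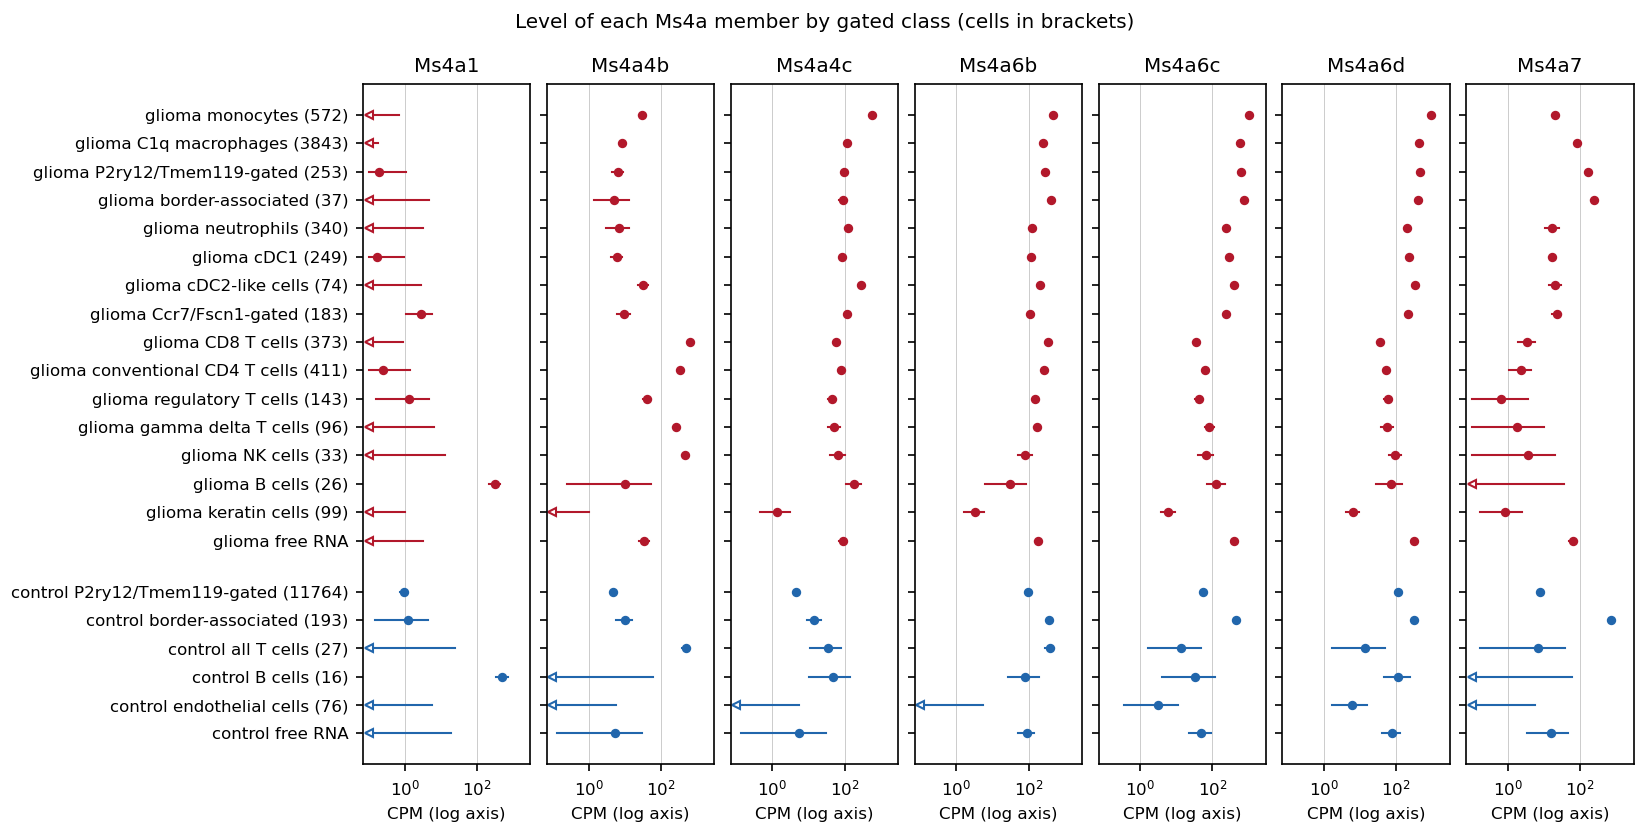
Level of each member in CPM (log axis) by gated class, glioma in red above control in blue, with the number of cells in brackets and bars for exact 95% counting intervals. Open triangles mark values under 0.1 CPM, the left end of the drawn range. Ms4a1 stands out in the B cell rows, Ms4a4b in the T and NK cell rows, and Ms4a7 in the control border-associated row at 706.4 CPM.

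Ms4a1, which encodes CD20, had 317.9 CPM (217.5 to 448.8) in the 26 glioma B cells and 506.3 CPM (344.0 to 718.6) in the 16 control B cells. These intervals overlap, and both classes are too small for a comparison. After thinning, 44.0% of glioma and 40.0% of control B cells had an Ms4a1 UMI. In all, 65 UMIs were seen in 41 glioma cells and 382 UMIs in 105 control cells. Of these, 30 of the 41 glioma cells and 96 of the 105 control cells also had UMIs of Cd79a or Cd79b, the signalling chains of the B cell receptor. The B cell gate held 32 of the 65 glioma UMIs, but 31 of the 382 control UMIs. Most control UMIs lay outside the B cell gate: 112 in the Ccr7 and Fscn1 gate, 111 in cells of more than 1 lineage and 82 in microglia. In control microglia Ms4a1 stood at 0.961 CPM, and at 0.125 CPM in those without a Cd79a or Cd79b UMI. In glioma C1q macrophages, by contrast, 0 of the 5 cells with Ms4a1 had a Cd79a or Cd79b UMI. Whether barcodes with Ms4a1 outside the B cell gate held 2 cells was not tested.

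Ms4a4b, a membrane adapter known from mouse T cells, was highest in cytotoxic cells. It had 659.1 CPM (634.6 to 684.3) in CD8 T cells, 468.8 CPM (391.4 to 557.0) in the 33 NK cells, 352.3 CPM (333.9 to 371.4) in conventional CD4 T cells and 265.4 CPM (224.8 to 311.3) in gamma delta T cells of glioma. Regulatory T cells stood far below the other T cells at 42.1 CPM (32.4 to 53.7). None of these 5 intervals overlapped another. The same order held in shares of thinned cells with a UMI, at 66.6% of CD8, 39.7% of conventional CD4, 29.5% of gamma delta and 9.93% of regulatory T cells, with NK cells at 57.6%. Free RNA of the glioma library held 34.9 CPM of Ms4a4b, so the level in regulatory T cells was 121% of that of free RNA, against 1890% in CD8 T cells. The macrophage genes C1qa and Apoe stood at 4.04% and 4.66% of free RNA in regulatory T cells. The part of free RNA in their Ms4a4b was not tested.

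Glioma regulatory T cells (143, gated by Foxp3) were compared with conventional CD4 T cells (411). Of 5 members with at least 20 UMIs in both sums together, 1 was at least 2-fold lower and 0 higher, where 4.44% of all genes tested were lower and 6.34% higher. That member was Ms4a4b, at 42.1 against 352.3 CPM, a log2 ratio of -3.06 (-3.45 to -2.70). Ms4a6b stood at 148.5 against 272.1 CPM (log2 ratio -0.87, -1.09 to -0.66), and Ms4a4c at 44.0 against 81.2 CPM (-0.87, -1.29 to -0.50), which is 50.3% and 92.7% of its level in free RNA. Ms4a6c stood at 43.4 against 63.2 CPM (-0.54, -0.96 to -0.15). Ms4a6d did not differ beyond counting error, at 57.2 against 52.2 CPM (0.14, -0.25 to 0.50). The median over the 5 members was -0.87, against 0.11 over all genes tested. The genes of the related TMEM176 proteins were also at least 2-fold lower, Tmem176a at 28.9 against 79.4 CPM and Tmem176b at 24.3 against 69.1 CPM.

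CD8 T cells were then set against conventional CD4 T cells, where 0 of 6 members were 2-fold apart and 5.26% of all genes were higher and 7.83% lower. Ms4a4b had 659.1 against 352.3 CPM, a log2 ratio of 0.90 (0.81 to 0.9985), and Ms4a6b 341.7 against 272.1 CPM, a log2 ratio of 0.33 (0.21 to 0.45). Within CD8 T cells, Ms4a4b and Ms4a6b were both higher in cells with Gzmb. The 206 cells with at least 3 UMIs of Gzmb, which encodes granzyme B, had 728.0 CPM of Ms4a4b against 522.5 CPM in the 105 cells with none, a log2 ratio of 0.48 (0.33 to 0.62). Their Ms4a6b was 379.5 against 270.3 CPM. Cycling CD8 T cells (Mki67 and Top2a, 72 cells) had 639.5 CPM of Ms4a4b against 656.0 CPM in the 231 without, a ratio that includes no change.

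All 1305 glioma T cells together had 409.8 CPM of Ms4a4b (398.6 to 421.2), against 504.3 CPM (396.0 to 633.1) in the 27 control T cells, a log2 ratio of -0.31 (-0.63 to 0.05). Their Ms4a6b was 263.1 CPM (254.2 to 272.3), against 381.6 CPM (288.3 to 495.6) in control T cells, a log2 ratio of -0.55 (-0.92 to -0.13). Of 6 members tested, 2 were at least 2-fold higher (Ms4a6c and Ms4a6d, each on 2 control UMIs) and 1 lower (Ms4a7, on 1 control UMI), with a background of 14.4% and 19.3% of all genes. The intervals of Ms4a6d (-0.09 to 4.82) and Ms4a7 (-3.94 to 3.98) include no change, and that of Ms4a6c (0.02 to 4.93) begins next to it, so differences of this size were barely detectable or not detectable with 27 cells. The mix of T cell types also differed, since 0 of the 27 control cells were regulatory T cells.

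Ms4a6b was the member that T cells and myeloid cells shared. In glioma it had 341.7 CPM (324.2 to 360.0) in CD8 T cells, 252.5 CPM (248.7 to 256.5) in C1q macrophages and 463.1 CPM (444.8 to 481.9) in monocytes. Free RNA held 177.9 CPM, and keratin cells had 3.25 CPM. Not all T cells stood above free RNA, with gamma delta T cells at 175.8 CPM (98.8% of it) and regulatory T cells at 148.5 CPM (83.5%). The 33 NK cells had 79.9 CPM (50.1 to 121.0) and the 26 B cells 29.8 CPM (6.15 to 87.1), intervals that overlap each other and lie below that of CD8 T cells.

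CD8 T cells against C1q macrophages, the largest glioma class (3843 cells), gave the lymphoid and myeloid poles of the family. Of 6 members tested, 1 was at least 2-fold higher in CD8 T cells and 4 lower, with a background of 16.1% and 25.1% of all genes. Ms4a4b was higher, at 659.1 against 8.21 CPM (log2 ratio 6.33, 6.19 to 6.46). Ms4a7 (3.38 against 80.5 CPM), Ms4a6c (34.8 against 578.3 CPM), Ms4a6d (35.5 against 417.8 CPM) and Ms4a4c (56.8 against 114.9 CPM) were lower. In CD8 T cells Ms4a7 stood at 5.33% of its level in free RNA, next to 5.12% for each of the macrophage genes C1qa and Apoe, and Ms4a6c and Ms4a6d stood at 8.84% and 11.6%. Ms4a7 was thus at the share of C1qa and Apoe, while Ms4a6c and Ms4a6d lay above it. P2ry12, at 1.45 CPM, stood at 8.53% of free RNA, near Ms4a6c. The part of free RNA in the levels of Ms4a6c and Ms4a6d was not tested. Ms4a4c was at 64.8% and Ms4a6b at 192% of free RNA in the same cells.

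Of the members tested, Ms4a4c had the largest ratio of glioma monocytes over C1q macrophages. Ms4a6c and Ms4a6d had higher levels in those monocytes, at 1047 and 913.9 CPM. The 572 glioma monocytes, gated by Ly6c2 and few C1q UMIs, had 578.9 CPM (558.4 to 599.9), against 114.9 CPM (112.3 to 117.5) in C1q macrophages. Below monocytes came 277.2 CPM (249 to 307.7) in cDC2-like dendritic cells, 252.7 CPM (247.2 to 258.2) in other Csf1r-positive cells, 178.8 CPM (106.0 to 282.6) in the 26 B cells, 121.3 CPM in neutrophils, 118.8 CPM in dendritic cells of the Ccr7 and Fscn1 gate and 84.3 CPM in cDC1. The values of neutrophils (102.2 to 143.0) and of the Ccr7 and Fscn1 gate (105.7 to 133.1) overlapped each other and that of C1q macrophages. Of thinned monocytes 56.0% had an Ms4a4c UMI, against 19.7% of C1q macrophages and 1.02% of keratin cells.

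Monocytes against C1q macrophages placed 3 of 6 members at least 2-fold higher and 1 lower, where 5.37% of all genes were higher and 12.1% lower. The median over members was 1.002 on the log2 scale, against -0.13 over all genes. Ms4a4c had a log2 ratio of 2.33 (2.27 to 2.39) and Ms4a6d, at 913.9 against 417.8 CPM, one of 1.13 (1.08 to 1.17). Ms4a6c, a macrophage and monocyte member, had 1047 against 578.3 CPM (0.86, 0.82 to 0.90). Ms4a7 went the other way, with 19.9 CPM (16.3 to 24.1) against 80.5 CPM (78.4 to 82.8), a log2 ratio of -2.01 (-2.31 to -1.74). The third higher member was Ms4a4b, at 29.5 against 8.21 CPM, where the T cell gene Cd3e was 4.78 against 3.40 CPM. In cells with no Cd3d, Cd3e or Cd3g UMI, a restriction chosen after these values were seen, Ms4a4b was lower in both classes, at 17.5 against 3.79 CPM. Its whole level in monocytes was 84.5% of that in free RNA, and the part of RNA from other cells in it was not tested.

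The opposite courses of Ms4a4c and Ms4a7 were also seen in steps of Ly6c2 and C1q UMIs over glioma Csf1r-positive cells, a division chosen after the class values were known. From cells with at least 2 Ly6c2 and at most 3 C1q UMIs to cells with at most 1 Ly6c2 and at least 100 C1q UMIs, Ms4a4c ran over 5 steps through 578.9, 525.0, 276.5, 143.1 and 101.1 CPM. Ms4a7 ran through 19.9, 23.0, 63.4, 42.5 and 106.9 CPM. Ms4a4c fell at each step, while Ms4a7 was lower at the fourth step than at the third. The steps were cut by counts, so cells differ in depth across them, with medians of 8346, 9030, 14357.5, 11000.5 and 19411.5 UMIs; the part of depth in the courses was not tested. Ms4a4c was 265.3 CPM in the 1007 cells with neither mark (at most 1 Ly6c2 and at most 3 C1q UMIs).

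**Figure D2:**
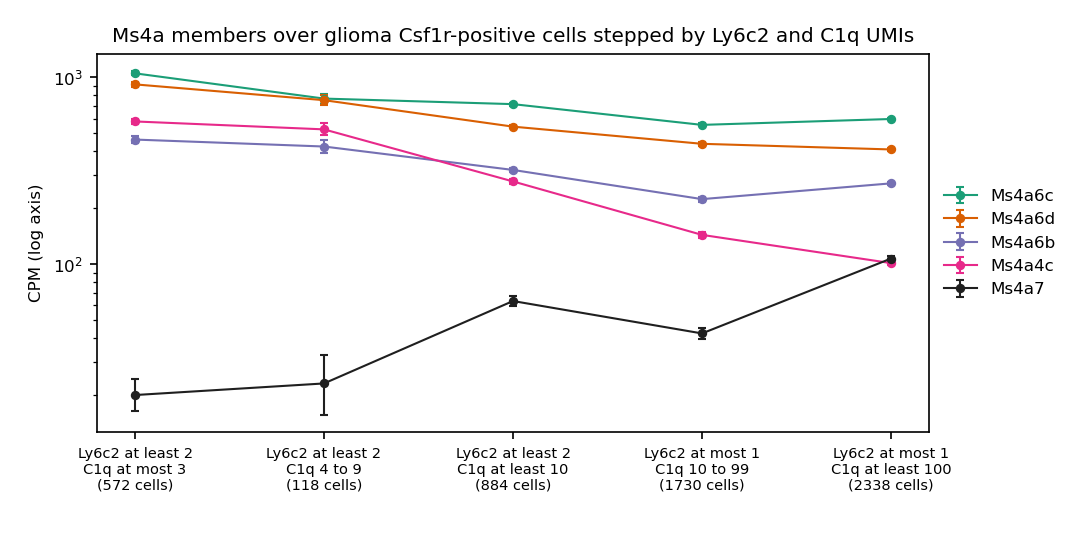
Level in CPM (log axis) of 5 members over glioma Csf1r-positive cells in 5 steps, from many Ly6c2 and few C1q UMIs on the left to few Ly6c2 and many C1q UMIs on the right, with exact 95% counting intervals. Ms4a4c descends from 578.9 CPM at the left end to 101.1 CPM at the right end, and Ms4a7 is at 19.9 CPM and 106.9 CPM at these ends.

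Among glioma Csf1r-positive cells, Ms4a4c also followed interferon-induced genes. The 766 cells with at least 3 UMIs of Rsad2, Ifit1 and Ifit2 had 352.4 CPM of Ms4a4c against 144.3 CPM in the 5220 cells with none, a log2 ratio of 1.29 (1.24 to 1.34). A difference in the same direction was seen within single classes. In monocytes the values were 1091 CPM in 82 cells against 437.4 CPM in 375 cells (1.32, 1.19 to 1.44), and in C1q macrophages 210.4 CPM in 348 cells against 98.2 CPM in 2844 cells (1.10, 1.01 to 1.19). Median UMIs per cell differed little over these splits, at 8370.5 against 8260 in monocytes and 16476 against 15668 in C1q macrophages. Ms4a6b had log2 ratios of 0.71 (0.56 to 0.86) in monocytes and 0.30 (0.23 to 0.38) in C1q macrophages, and Ms4a6c of 0.35 and 0.16. Ms4a7 did not differ beyond counting error in either class (0.58, -0.25 to 1.31, and 0.04, -0.10 to 0.17). Isg15, an interferon-induced gene outside the split, had log2 ratios of 2.50 and 1.85 in the same cells.

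In control microglia the split by Ifit3, Ifit2 and Rsad2 set 141 cells against 11139. Ms4a4c was 42.9 against 3.07 CPM (log2 ratio 3.81, 3.41 to 4.18), Ms4a7 was 33.3 against 5.62 CPM (2.58, 2.15 to 2.96), and Ms4a6c 102.8 against 51.1 CPM (1.01, 0.79 to 1.22). Ms4a6d did not differ beyond counting error, at 103.4 against 109.1 CPM. The T cell gene Cd3e was also higher in these cells, at 12.4 against 3.11 CPM, as was the T cell member Ms4a4b, at 20.3 against 3.79 CPM. The part of RNA from other cells in these values was not tested.

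Ms4a7 followed Mrc1, the gene of the mannose receptor CD206. Over the 20 classes with at least 50 cells, from both libraries, its profile was most like that of Mrc1 among 10796 genes (Pearson r of log2(CPM + 1) 0.98), followed by Siglec1 (0.92) and Apoe (0.92); the classes share 2 libraries and their free RNA, so this is a description. The classes of B cells were under 50 cells and are not among the 20. In glioma Csf1r-positive cells, the 2613 with at least 3 Mrc1 UMIs had 111.7 CPM of Ms4a7 against 32.6 CPM in the 3134 with none (1.78, 1.69 to 1.87), and Ms4a4c had 104.0 against 292.0 CPM (-1.49, -1.54 to -1.44). Within C1q macrophages alone the same split, chosen after the class profiles were seen, gave 97.7 against 43.9 CPM of Ms4a7 (1.15, 1.03 to 1.29) and 93.7 against 165.0 CPM of Ms4a4c (-0.82, -0.90 to -0.74). The cells with Mrc1 were deeper, with medians of 18366 against 11694 UMIs.

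A split by Arg1, which encodes arginase 1, had nearly even depth in C1q macrophages (medians of 15697 and 15910 UMIs). There, the 1038 cells with at least 3 Arg1 UMIs had 120.3 CPM of Ms4a7 against 60.2 CPM in the 2199 without, a log2 ratio of 0.998 (0.91 to 1.09). In monocytes the same split gave 68.9 CPM in 91 cells against 7.61 CPM in 407 cells (3.16, 2.51 to 3.89). Ms4a4c was lower in Arg1 cells of both classes, with log2 ratios of -0.62 in monocytes and -0.52 in C1q macrophages. By Mmp13 and Vcam1, Ms4a7 had a log2 ratio of 0.93 (0.82 to 1.04) within C1q macrophages and by Mki67 and Top2a one of -0.41 (-0.53 to -0.30). In the 5 splits of C1q macrophages the log2 ratios of Ms4a6b, Ms4a6c and Ms4a6d ran from -0.30 (Ms4a6d, by Mki67 and Top2a) to 0.30 (Ms4a6b, by Rsad2, Ifit1 and Ifit2).

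**Figure D3:**
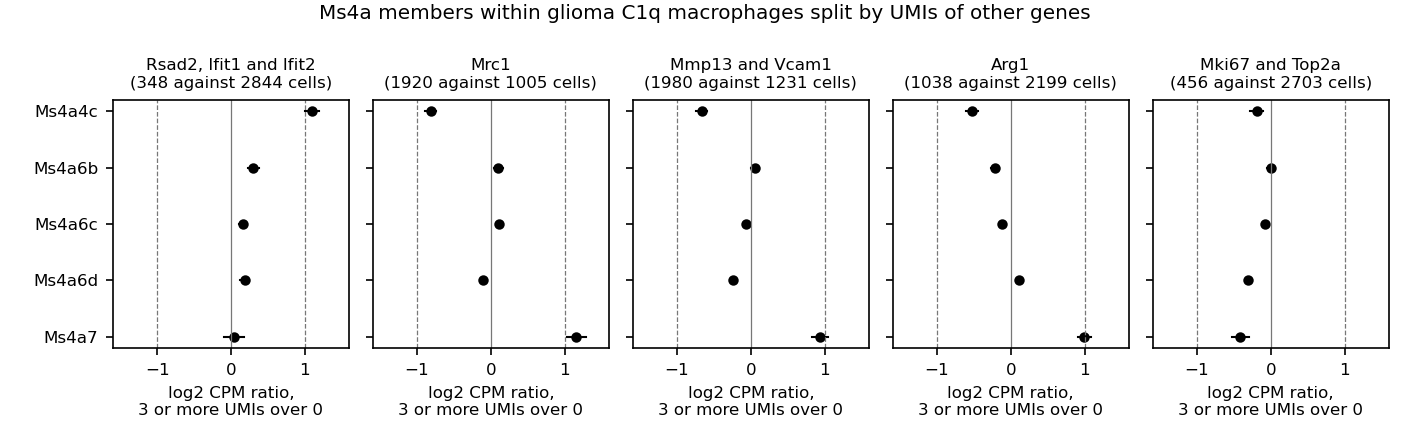
Log2 CPM ratio of 5 members within glioma C1q macrophages between cells with at least 3 UMIs of the named genes and cells with none, with 95% counting intervals and dashed lines at 2-fold. Ms4a4c lies beyond the line at 1.10 for Rsad2, Ifit1 and Ifit2, and Ms4a7 at 1.15 for Mrc1, while Ms4a6b, Ms4a6c and Ms4a6d stay near 0.

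Splits by Cxcl9, an interferon-gamma-induced chemokine, and by Inhba, a subunit of activin, were taken over all glioma Csf1r-positive cells. They moved Ms4a7 and Ms4a4c less than the Mrc1 split of the same cells did. By Cxcl9 the log2 ratio was -0.14 for Ms4a7 and -0.21 for Ms4a4c. By Inhba it was -0.65 (-0.74 to -0.56) for Ms4a7, -0.50 for Ms4a6b and -0.02 for Ms4a4c. The Ms4a7 ratios by Arg1 above were positive, but they were taken within single classes and thus not on the same set of cells. The Arg1 ratio over all Csf1r-positive cells is not given here.

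Ms4a7 was highest of all in border-associated macrophages of normal brain, gated by Cbr2, Cd163 and Lyve1. The 193 control cells had 706.4 CPM (665.8 to 749.0) against 7.55 CPM (6.98 to 8.16) in control microglia, a log2 ratio of 6.55 (6.41 to 6.69). Of 7 members, 6 were at least 2-fold higher in border-associated macrophages and 0 lower, with a background of 18.4% and 13.4% of all genes; this comparison was chosen after the levels were seen. Ms4a6c had 462.2 against 53.3 CPM (3.12, 3.002 to 3.23), Ms4a6b 372.4 against 96.3 CPM (1.95, 1.83 to 2.07) and Ms4a6d 311.5 against 109.2 CPM (1.51, 1.38 to 1.64). Ms4a4c was low in both, at 14.4 against 4.44 CPM. The 6 include Ms4a4b, at 10.05 against 4.75 CPM, whose 16 UMIs in border-associated macrophages lay in 3 cells. In cells without a Cd3 UMI it had 0 UMIs (0 to 2.41 CPM) against 0.896 CPM, so it is not among the higher members there. Of thinned cells, 71.0% of border-associated macrophages and 0.827% of microglia had an Ms4a7 UMI. In control microglia Ms4a7 was at 47.4% of its level in free RNA and Ms4a4c at 83.7%, levels of free RNA that rest on 3 UMIs and 1 UMI.

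In glioma only 37 cells met the border-associated gate, under the minimum of 50 set for a comparison, so the values are given for orientation. Ms4a7 had 238.7 CPM (205.4 to 275.8) in these glioma cells, against 706.4 CPM in the control cells (log2 ratio -1.56, -1.80 to -1.34). Ms4a4c had 90.8 CPM (70.8 to 114.7) against 14.4 CPM (2.63, 1.95 to 3.40). Of 6 members tested, these were the 1 lower and the 1 higher past 2-fold, beside 18.1% lower and 14.7% higher of all genes. The marker Cbr2 was itself 132.3 CPM in the glioma cells and 529.4 CPM in the control cells, and whether the gate holds the same cells in both was not tested.

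Besides the P2ry12/Tmem119 gate, the C1q gate, the Ccr7 and Fscn1 gate and the other Csf1r-positive cells had 50 or more cells in both libraries. They were not compared between the libraries. Of the other Csf1r-positive cells, 2509 were in glioma and 467 in control, with medians of 10342 and 1942 UMIs. The P2ry12/Tmem119 gate, the class compared as planned, held 253 glioma and 11764 control cells. In glioma 5 of 7 members were at least 2-fold higher and 1 lower, where 12.8% of all genes were higher and 33.0% lower. The median log2 ratio was 2.07 over the members and -0.41 over all genes tested. Ms4a7 had 165.4 CPM (154.3 to 177.1) in glioma against 7.55 CPM in control, a log2 ratio of 4.45 (4.30 to 4.60). Ms4a4c had 96.3 against 4.44 CPM (4.44, 4.24 to 4.64), and Ms4a6c 625.5 against 53.3 CPM (3.55, 3.49 to 3.62). Ms4a6d had 458.9 against 109.2 CPM (2.07, 2.01 to 2.14) and Ms4a6b 280.5 against 96.3 CPM (1.54, 1.46 to 1.62).

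Over all cells of that gate, the remaining pair did not separate beyond counting error. Ms4a4b had 6.39 against 4.75 CPM (0.45, -0.14 to 0.95). In cells without a Cd3 UMI, a restriction chosen after the values were seen, the intervals of Ms4a4b did not overlap. It had 3.14 CPM (1.72 to 5.27) in glioma against 0.896 CPM (0.703 to 1.12) in control. The part of RNA from other cells in these values was not tested. Ms4a1, the member past 2-fold in the lower direction, had 1 UMI against 82 (-1.69, -7.59 to 0.25). The cells of the gate are not alike in the 2 libraries, by the P2ry12 and Sall1 levels above and by Apoe, at 18867 CPM in glioma and 1234 CPM in control. A change of the members in microglia and a gate filled by other cells cannot be told apart here.

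**Figure D4:**
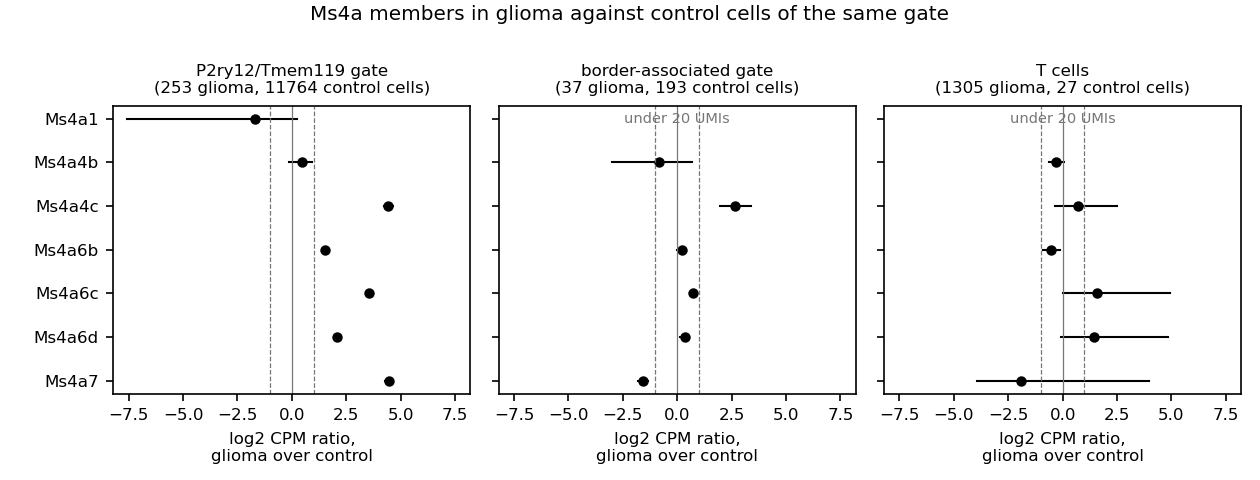
Log2 CPM ratio of each member, glioma over control, in cells of the P2ry12/Tmem119 gate, the border-associated gate and T cells, with 95% counting intervals and dashed lines at 2-fold; members with under 20 UMIs have no point. In the first gate 5 members lie right of the upper line, between 1.54 and 4.45, and in the second Ms4a4c lies right and Ms4a7 left of the lines.

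Beside C1q macrophages of the same library, the P2ry12/Tmem119-gated glioma cells differed 2-fold in 1 of 6 members tested and in the higher direction, where 4.2% of all genes were higher and 2.92% lower. That member was Ms4a7, at 165.4 against 80.5 CPM (log2 ratio 1.04, 0.93 to 1.14). The other members lay between -0.34 and 0.15 on the log2 scale. The order Ms4a6c above Ms4a6d above Ms4a6b was that of glioma C1q macrophages and not that of control microglia, where Ms4a6d (109.2 CPM) and Ms4a6b (96.3 CPM) stood above Ms4a6c (53.3 CPM). Glioma monocytes (1047, 913.9 and 463.1 CPM) and glioma free RNA (393.3, 305.7 and 177.9 CPM) had the same order as the C1q macrophages.

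Ms4a6c and Ms4a6d went together over the classes. Their profiles had a Pearson r of 0.97 over the 20 classes, against 0.78 for Ms4a6b and Ms4a6c and 0.75 for Ms4a6b and Ms4a6d. Glioma levels of Ms4a6c against Ms4a6d were 1047 and 913.9 CPM in monocytes, 578.3 and 417.8 CPM in C1q macrophages, 384.3 and 340.2 CPM in cDC2-like cells, 280.7 and 219.0 CPM in cDC1 and 238.4 and 193.9 CPM in neutrophils. Ms4a6c was the higher of the 2 in each of these classes, whereas in control microglia Ms4a6d was the higher. In cDC1 they stood at 71.4% and 71.6% of free RNA, below C1qa at 85.8% but above Apoe at 41.2% and P2ry12 at 25.5%. The part of RNA from other cells in their level there was not tested. In neutrophils they stood at 60.6% and 63.4%, against 12.8% for C1qa, 27.4% for Apoe and 35.2% for P2ry12, and that part was not tested there either.

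Nearest to Ms4a6c in profile were Cybb, a subunit of the phagocyte NADPH oxidase (0.97), Milr1 (0.95) and the Fc receptor gene Fcgr2b (0.94), and nearest to Ms4a6d Fcgr2b (0.97), Milr1 (0.96) and Arrdc4 (0.93). Ms4a6b was most like Cd48 (0.95), Arhgap9 (0.95) and Was (0.95), genes of many leukocytes. Ms4a4b was most like Klrc1 (0.94), Sh2d2a (0.94) and Trbc2 (0.94), genes of T and NK cells. Ms4a4c was most like Ifi209, an interferon-inducible gene (0.96), Runx3 (0.93) and B3gnt5 (0.91), and Ms4a1 most like Ly6d (0.93), Cd79a (0.91) and Iglc2 (0.91). The values of Ms4a1 lean on the control Ccr7 and Fscn1 gate (22.8 CPM) and the control C1q gate (21.3 CPM), since no B cell class is included. The near-copies Ms4a4b and Ms4a4c had 0.52, and Ms4a4c and Ms4a7 0.36, or 0.27 and 0.15 with log2(CPM + 10).

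Per cell, pairs of Ms4a4c, Ms4a6b, Ms4a6c, Ms4a6d and Ms4a7 in glioma C1q macrophages were seen about as often as their shares give by multiplication. In glioma C1q macrophages thinned to 2000 UMIs, Ms4a6c and Ms4a6d were both seen in 36.5% of 3811 cells, where the product is 35.2%, a quotient of 1.04. The quotient was 0.95 for Ms4a4c and Ms4a7 and 1.18 for Ms4a6b and Ms4a7. In control microglia Ms4a6c and Ms4a7 were seen together in 31 of 10880 cells, 3.82 times the product. Other pairs there also exceeded it, at 2.47 for Ms4a4c and Ms4a6c (18 cells), 1.77 for Ms4a6b and Ms4a7 and 1.26 for Ms4a6b and Ms4a6c. Ms4a6d with Ms4a6b and with Ms4a6c had quotients of 1.09 and 1.08, and Ms4a4b with Ms4a6d had 0.60, on 5 cells. Quotients of rare pairs moved with depth. In cells thinned to 4000 UMIs, Ms4a6c with Ms4a7 had 2.93, Ms4a4c with Ms4a6c 1.71 and Ms4a4b with Ms4a6d 0.74. Ms4a4b with Ms4a6c had 1.51 at 2000 UMIs and 0.73 at 4000 UMIs.

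Of the 12 Ms4a genes that are not members, 3 reached 10 CPM in a class of at least 50 cells. Ms4a8a had 124.6 CPM in glioma monocytes against 20.3 CPM in C1q macrophages (log2 ratio 2.62, 2.48 to 2.75) and stood with Ms4a4c on the monocyte side. Ms4a4a had 11.99 CPM in P2ry12/Tmem119-gated glioma cells against 0.0938 CPM in control microglia (6.92, 5.93 to 8.27). It also had 11.9 CPM in control border-associated macrophages, 11.3 CPM in glioma monocytes and 8.17 CPM in glioma C1q macrophages. Ms4a14 had 33.3 CPM in control border-associated macrophages against 0.164 CPM in control microglia (7.63, 6.79 to 8.63), beside Ms4a7. Ms4a2, the beta chain of the high-affinity IgE receptor, had 5 of its 7 glioma UMIs and 6 of its 9 control UMIs in the 3 and 4 cells of the mast cell gate. Tmem176a and Tmem176b, on chromosome 6, had the opposite direction to the members in the P2ry12/Tmem119 gate, at 84.9 and 121.5 CPM in glioma against 314.0 and 567.7 CPM in control.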

How the data were processed

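The authors deposited raw counts: UMIs per gene and barcode, 31053 genes by 6794880 barcodes in 1 matrix per group, with no cell filter and no normalization, as tested on the files. Cell Ranger 3.0.2, STAR and Seurat 3, with the builds mm10 and GRCh38, are listed in the submitters' processing notes; the kit chemistry was either of 2 versions, per the labels' protocols. Every gene ID was a mouse Ensembl ID. With 1 pooled library per group, replicate error could not be measured and no test was run.

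Cells had at least 1000 UMIs and at most 10% mitochondrial UMIs. Gates used raw UMIs of markers, for example at least 3 of P2ry12 and Tmem119 for the microglial gate, at least 2 Ly6c2 and at most 3 C1q for monocytes, and at least 10 C1q and at most 1 Ly6c2 for C1q macrophages; Csf1r-positive cells that met no other gate formed a class of their own. Cells of more than 1 lineage were removed, which was the only treatment of doublets. CPM carry exact Poisson, shares Clopper-Pearson and ratios conditional binomial 95% intervals, with 0.5 UMIs added to each sum in a ratio; PCR duplicates are removed by the UMIs. Genes with at least 20 UMIs in both sums together were compared, and 2-fold counted as called. Shares came from cells thinned to 2000 UMIs, with shallower cells left out (1 of 572 monocytes, 32 of 3843 C1q macrophages and 83 of 340 neutrophils in glioma, 884 of 11764 microglia in control). Free RNA came from barcodes of 20 to 100 UMIs. The interval code was tested on simulated data.

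The text names the 7 members, the other Ms4a genes and Tmem176a and Tmem176b, and for each member the 3 genes most alike. The members and lists were chosen with earlier results of these data known. The comparisons of border-associated macrophages, of all T cells and of CD8 against CD4 T cells, the steps of Ly6c2 and C1q, and the splits by Mrc1, within single classes, in T cells and in control microglia were added after the data were seen. Python 3.11.15, numpy 2.4.6, scipy 1.17.1 and pandas 2.3.3 were used.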

Additional observations from a re-analysis of the deposited data

How the results depend on the processing

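The 5 planned comparisons were recomputed with cells of at least 500 or at least 2000 UMIs, at most 5% mitochondrial UMIs, gate minimums doubled, a mean over cells, free RNA subtracted at 10%, the 10% of barcodes with most UMIs left out, barcodes shared between libraries left out and no UMI minimum. No called ratio of a member changed its sign. Of the counts of members past 2-fold under these settings, 84 stayed within 1.5 times and 6 did not. In the P2ry12/Tmem119 gate the count lower in glioma was 0 without the 10% of barcodes with most UMIs, where Ms4a1 had -0.52. Against C1q macrophages, the count higher in P2ry12/Tmem119-gated glioma cells was 0 with a mean over cells, where Ms4a7 had 0.98, and 2 with no UMI minimum. In regulatory against conventional CD4 T cells the count lower was 3 with free RNA subtracted, where Ms4a6c had -2.46 and Ms4a4c -1.03, and 2 with no UMI minimum, where the count higher was 1.

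Single members crossed 2-fold as follows: Ms4a4b in the P2ry12/Tmem119 gate had 1.11 with a mean over cells and 2.28 without the 10% of barcodes with most UMIs, and -0.49 with free RNA subtracted. Ms4a6b in monocytes against C1q macrophages had 1.01 with gates doubled, and Ms4a4c in CD8 T cells against C1q macrophages -0.86 with gates doubled and -0.996 without shared barcodes. Splits at 1 UMI in place of 3 gave lower ratios within C1q macrophages: 0.69 for Ms4a4c by Rsad2, Ifit1 and Ifit2, and for Ms4a7 1.03 by Mrc1 and 0.83 by Arg1. With free RNA subtracted Ms4a6c in CD8 T cells had no UMIs left. With gates doubled 51 glioma cells were left in the P2ry12/Tmem119 gate. With log2(CPM + 10), 1 of the 3 genes most alike was kept for Ms4a1, Ms4a4b, Ms4a4c and Ms4a6b, and 2 for Ms4a6c, Ms4a6d and Ms4a7; the first gene was then Cd79a for Ms4a1 and Gmfg for Ms4a6b. Small classes (26 glioma and 16 control B cells, 27 control T cells) give wide intervals.

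No paired analysis was possible because each matrix pools its animals and the cells carry no replicate number; for the same reason no replicate could be left out in turn. NK against all T cells was not run, since 33 glioma NK cells are under the minimum of 50.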

Other observations

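The 74 glioma cells of the cDC2-like gate had 20.5 CPM (13.4 to 30.0) of Ms4a7 and 277.2 CPM (249 to 307.7) of Ms4a4c, against 198.8 CPM (168.7 to 232.8) and 81.3 CPM (62.5 to 104.1) in the 45 control cells of that gate, which are under the minimum for a class. Markers of border-associated macrophages and microglia differed the same way as Ms4a7: Cbr2 was 0 against 158.8 CPM, Mrc1 42.5 against 480.3 CPM, Apoe 1229 against 12775 CPM and P2ry12 1.58 against 450.6 CPM, and their part in the difference was not tested. Ms4a6c was 384.3 CPM in the glioma cells and 324 CPM in the control cells, with overlapping intervals. Control microglia split by Il1a and Tnf, with 4346 cells against 3970, had 9.82 against 5.39 CPM of Ms4a7 and 80.1 against 111.7 CPM of Ms4a6b.

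Glioma cells that met no gate (1231, median 4089 UMIs) had 479.9 CPM of Ms4a6c, 240.4 CPM of Ms4a4c and 46.3 CPM of Ms4a4b. The 34 glioma cells of the endothelial gate, with 0 CPM of Cldn5 and 2048 CPM of Plac8, had 637.4 CPM of Ms4a6d and 292.6 CPM of Ms4a4c, and 67.9 CPM of Ms4a8a.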
